A study of Mus musculus with 6 samples.

Results

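The genes described here act in DNA replication and S phase. They are a list of gene names with no threshold on measured values, and make up 47 of the 26286 genes in the deposited count tables: 15 genes of origin licensing and the replicative helicase, 16 of the polymerases and the replication fork, 4 of nucleotide supply, 3 of chromatin, 5 cyclin E and E2F genes, and 4 of the S phase checkpoint and DNA repair. Before a cell copies its genome, the origin recognition complex together with Cdc6 and Cdt1 loads the MCM helicase ring onto origins, and geminin blocks a further loading. Cdc45 and the GINS complex then turn the ring into an active helicase, and polymerases, a sliding clamp and its loader copy the strands from nucleotides that ribonucleotide reductase and thymidylate enzymes supply. Many of these genes are targets of E2F transcription factors, which are held back by the retinoblastoma protein family in resting lymphocytes and released when a cell commits to division.

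The study profiled regulatory T cells (Treg), the CD4+ T cells that restrain immune responses, from C57BL/6 reporter mice in which GFP marks expression of Blimp1, a transcriptional repressor of effector lymphocytes encoded by Prdm1. All sample titles carry the prefix BlimpHet, so the mice of both groups share that genotype. CD4+ CD25high cells of spleen and lymph node pools were sorted into a Blimp1/GFP+ and a Blimp1/GFP- population, neither of which received a treatment that the labels name, and the age of the mice is not among the labels. Each population has 3 libraries, described as biologically independent: 1 made by standard poly(A) selection (GFP- 20 and GFP+ 19) and 2 by a single-cell approach (GFP- 2 and 5, GFP+ 1 and 4), with the numbers taken from the titles. The comparison asks how Treg that express Blimp1 differ from those that do not.

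The poly(A) libraries held 27221562 and 28354321 counts, and those of the single-cell protocol from 15224051 to 17601420. Prdm1, which the sort was made on, had 9.13, 2.46 and 2.66 normalised CPM (counts divided by the scaled size of the library) in GFP- 20, 2 and 5 and 152, 44.3 and 29.5 in GFP+ 19, 1 and 4. The Treg factor Foxp3 had a log2 fold change of 0.21 ± 0.31 (SE) and Cd4 of 0.02 ± 0.25, both short of the threshold. Other tested T and regulatory T markers were not all flat. Ctla4 rose by 2.09 ± 0.32 (adjusted p = 0.00305 in edgeR's quasi-likelihood test). Il2ra went the other way, at -0.64 ± 0.23, and did not pass (adjusted p = 0.111). Trac at 0.33 ± 0.29 and Ikzf2 at 0.60 ± 0.23 did not pass either. Macrophage and myeloid markers moved with the groups: all 11 that could be tested were higher in GFP+, and their summed level was 13.0, 23.0 and 28.9 CPM in the GFP- libraries and 739, 1384 and 1752 CPM in the GFP+ libraries. Over all genes tested, 9.81% were called higher. The low-count filter was grouped by population. In GFP- 20, 2 and 5, Mertk had 5, 4 and 1 counts, Cd14 had 5, 2 and 0, and Marco had 3, 8 and 1. Genes this low in GFP- entered the test through their GFP+ counts, so for them the filter fixed the direction. The 11 is therefore a description only. The part of macrophage and myeloid cells in the results below was not tested. In such bulk samples, a change in the share of dividing cells and a change in RNA per cell cannot be told apart.

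Replication genes were higher in GFP+ than in GFP- Treg. Of the 47 genes, 42 could be tested over all 6 libraries, and 19 of them rose in GFP+ Treg, between 0.82 and 2.21 on the log2 scale, while 0 fell (edgeR's quasi-likelihood test, Benjamini-Hochberg adjusted p between 0.000733 and 0.0416). Over all 10523 genes tested, 9.81% were called higher and 3.68% lower. The other 23 genes did not pass, with log2 fold changes between 0.11 and 1.07. The fitted log2 fold change was above 0 for all 42, with a median of 0.88, against a median of -0.08 over all genes, of which 43.8% were above 0. At an unadjusted p under 0.05 there were 29 of the 42, and 0 of them lay below 0. The share of all genes at that unadjusted threshold is not given, so the 29 is a description only. DESeq2 and limma-voom also called 0 lower. The number called was 7 without GFP- 20, 6 without GFP+ 19 and 7 without GFP+ 1, and 0 when the protocol was left out of the model. Over all 10523 genes the number called higher moved too, from 1032 to 584, 562, 683 and 115 in the same order. Without GFP- 20 or GFP+ 19, the protocol term takes up the remaining poly(A) library. Both fits then compare the single-cell protocol libraries only, and the median log2 fold change of the 42 genes was 0.89 in each. They are not separate results, and a tally of the 6 fits with a library left out counts that comparison in 2 of them. With consecutive title numbers (1 and 2, 4 and 5, 19 and 20) as a block in place of the protocol, 31 replication genes were called. They were the 19 and 12 more, namely Mcm2, Mcm4, Mcm7, Gins1, Prim1, Pole, Fen1, Rfc3, Rfc5, Ccne1, Ccne2 and Brca1. Over all genes that fit called 1658 higher. Rrm2, Uhrf1, Tk1, Chaf1a and Gmnn, 5 in all, passed whichever library was left out.

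**Figure D1:**
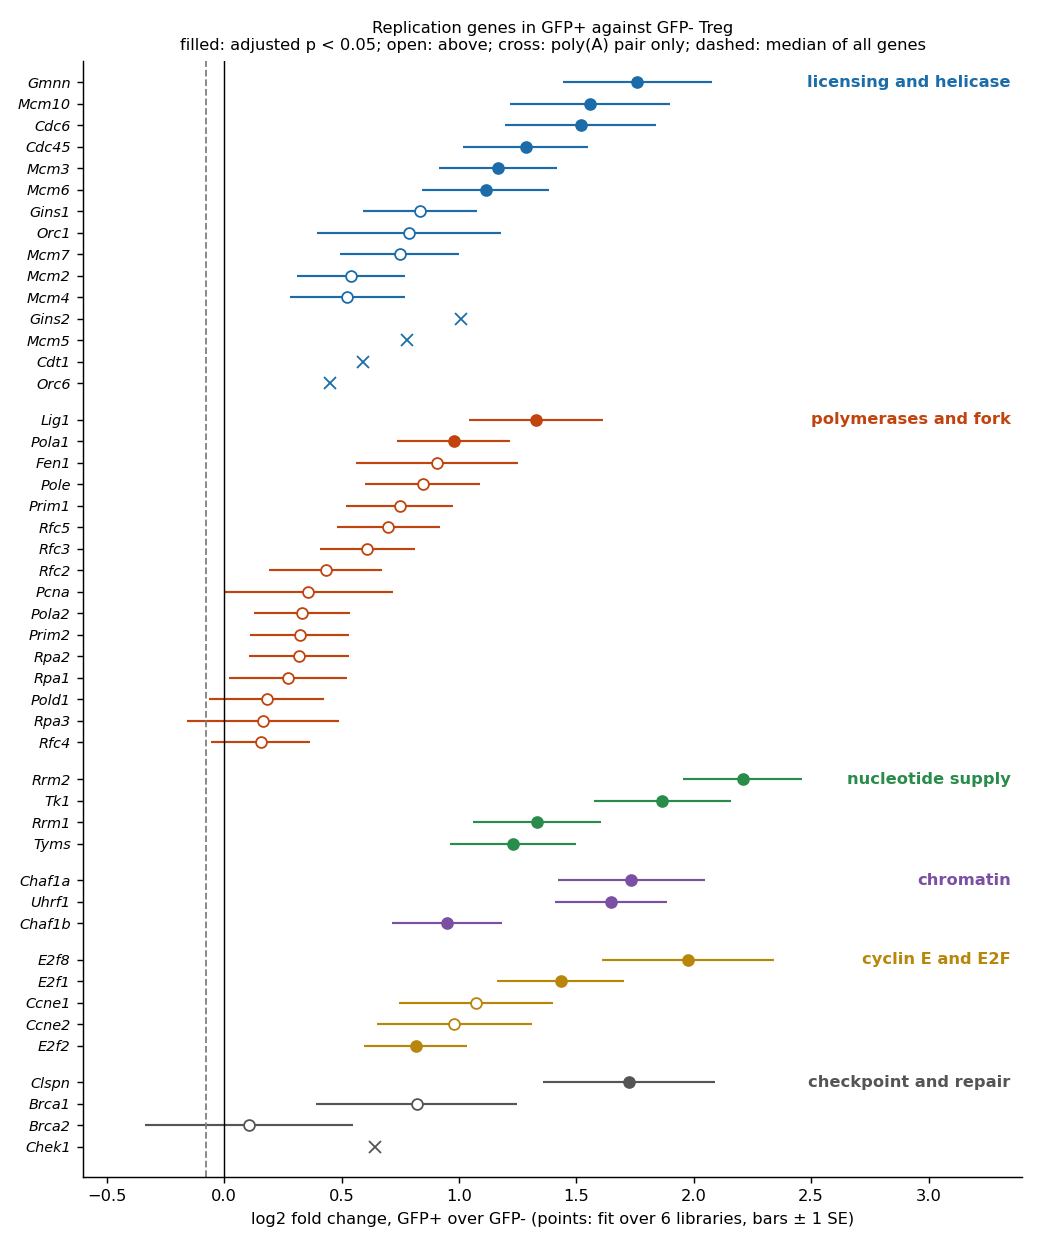
Log2 fold change of each gene in GFP+ over GFP- Treg, by role. Points are fitted values over 6 libraries with bars of ± 1 SE, filled where the adjusted p is under 0.05; crosses are the log2 ratio of the poly(A) pair, without a test, for the 5 genes with no single-cell protocol counts. All points lie above 0, from 0.11 for Brca2 to 2.21 for Rrm2, and to the right of the median of all genes at -0.08.

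All 4 genes of nucleotide supply rose, with a median of 1.60. Rrm2, the small subunit of ribonucleotide reductase and its S phase regulated part, stood at 12.8, 21.7 and 16.1 CPM in GFP- 20, 2 and 5 and at 64.2, 66.9 and 101 CPM in GFP+ 19, 1 and 4. Each GFP+ library was above every GFP- library, and GFP+ 4 was the highest. The fold change was 4.62, or 2.21 ± 0.26 on the log2 scale, with an adjusted p of 0.000733 in edgeR's quasi-likelihood test. Rrm1, the large catalytic subunit that is present through more of the cell cycle, measured 42, 51.4 and 35.7 CPM in GFP- and 80.3, 149 and 103 CPM in GFP+. Its groups did not overlap, and it rose by 1.33 ± 0.27 (adjusted p = 0.0127). The Rrm1 call held in 5 of 6 fits with a library left out.

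Tk1, the cytosolic thymidine kinase that salvages thymidine, was at 8.28, 13.8 and 12.5 CPM in GFP- and at 19.1, 72.4 and 49.3 CPM in GFP+. The single-cell protocol libraries of GFP+ were the high ones, and the lowest GFP+ value, that of the poly(A) library, was still above all GFP- values. The log2 fold change was 1.87 ± 0.29 (adjusted p = 0.00319). Tyms, thymidylate synthase, which makes thymidylate from deoxyuridylate, was measured at 7.04, 4.06 and 6.33 CPM in GFP- and at 12.9, 13.6 and 14.1 CPM in GFP+. The groups were apart, and the difference was 1.23 ± 0.27 (adjusted p = 0.0168), a call kept in 2 of 6 fits with a library left out. The tables also hold the pseudogene Tyms-ps, which rose by 1.51 ± 0.28 (adjusted p = 0.00852), so the level of Tyms is uncertain where reads match both.

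The promoter of Rrm2, the tested gene with the smallest p, is printed below beside those of Uhrf1, next in order, and Brca2, which had the largest p. Mcm6, whose window holds the most E2F words of the 39 searched, and Clspn, a further gene that rose and holds 1, were added after the motif counts were seen. Sequences are RefSeq's (GRCm38.p6), 250 bases before to 50 after the start site on the gene's own strand, and capitals mark E2F words (TTTCGCGC, TTTGGCGC, TTTCCCGC or TTTGCCGC on either strand) and CCAAT boxes (CCAAT on either strand, which NF-Y is known to bind). In these 5 windows no E2F word overlaps a CCAAT box. E2F words overlap each other in Mcm6, and CCAAT boxes in Uhrf1. They lie at chr12:24708004-24708303 on the + strand for Rrm2, chr17:56303087-56303386 on the + strand for Uhrf1 (the first of 2 listed), chr1:128359656-128359955 on the - strand for Mcm6, chr4:126556730-126557029 on the + strand for Clspn and chr5:150522371-150522670 on the + strand for Brca2.
Rrm2: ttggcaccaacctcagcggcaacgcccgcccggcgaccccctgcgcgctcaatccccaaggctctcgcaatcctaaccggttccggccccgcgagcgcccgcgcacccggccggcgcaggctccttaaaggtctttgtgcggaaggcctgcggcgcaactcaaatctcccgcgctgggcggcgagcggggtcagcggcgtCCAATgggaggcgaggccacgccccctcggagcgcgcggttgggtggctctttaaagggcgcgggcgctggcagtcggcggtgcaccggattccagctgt
Uhrf1: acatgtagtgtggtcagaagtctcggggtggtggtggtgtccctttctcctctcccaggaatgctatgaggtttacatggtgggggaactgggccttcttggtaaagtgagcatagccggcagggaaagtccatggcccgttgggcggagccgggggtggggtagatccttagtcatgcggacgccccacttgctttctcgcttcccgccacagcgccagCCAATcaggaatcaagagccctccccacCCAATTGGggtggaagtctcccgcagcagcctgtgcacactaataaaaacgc
Mcm6: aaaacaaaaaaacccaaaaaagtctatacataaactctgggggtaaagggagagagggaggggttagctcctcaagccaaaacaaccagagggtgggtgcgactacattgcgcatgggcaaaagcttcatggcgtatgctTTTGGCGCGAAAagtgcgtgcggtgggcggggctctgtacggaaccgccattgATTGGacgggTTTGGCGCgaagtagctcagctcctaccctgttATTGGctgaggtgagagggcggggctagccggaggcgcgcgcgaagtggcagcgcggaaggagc
Clspn: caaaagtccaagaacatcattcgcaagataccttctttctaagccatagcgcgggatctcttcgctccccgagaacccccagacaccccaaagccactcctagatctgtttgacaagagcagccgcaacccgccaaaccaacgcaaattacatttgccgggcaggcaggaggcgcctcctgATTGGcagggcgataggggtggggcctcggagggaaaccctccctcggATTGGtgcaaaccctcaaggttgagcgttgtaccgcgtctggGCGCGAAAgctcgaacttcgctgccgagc
Brca2: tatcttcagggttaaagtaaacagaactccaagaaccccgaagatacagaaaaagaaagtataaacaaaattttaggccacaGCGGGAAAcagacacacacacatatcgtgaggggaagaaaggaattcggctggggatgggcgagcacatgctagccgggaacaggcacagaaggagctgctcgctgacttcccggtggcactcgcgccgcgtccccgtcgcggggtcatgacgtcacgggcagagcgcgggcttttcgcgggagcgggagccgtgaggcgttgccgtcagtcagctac

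The Rrm2 and Uhrf1 windows hold no E2F word in these letters. Mcm6 holds 3, whose first bases lie 110, 106 and 47 bases before the start site, and Clspn holds 1, which begins 22 bases after it. Brca2, which did not pass the test, also holds 1. Among the 39 of the 47 genes with a promoter in the RefSeq table, 13 (33.3%) hold an E2F word, compared with 626 (2.32%) of all 27025 promoters. The share was 6 of 18 (33.3%) among the genes that rose and 5 of 17 (29.4%) among those tested that did not pass. CCAAT boxes were present in 24 of 39 (61.5%), compared with 37.9% of all promoters. The word TTTGAA, the core of the cell cycle homology region of mitotic genes, was present in 4 of 39 (10.3%), compared with 18.1% of all promoters. A match describes letters in the window, not a bound site.

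All 3 chromatin genes rose, with a median of 1.65. Uhrf1, which reads hemimethylated DNA behind the fork and brings in the maintenance DNA methyltransferase, was at 30.6, 3.91 and 3.04 CPM in GFP- and at 85.4, 10.2 and 13.4 CPM in GFP+. Within each protocol GFP+ was above GFP-, but the poly(A) GFP- library was above both single-cell protocol GFP+ libraries. The log2 fold change was 1.65 ± 0.24 (adjusted p = 0.00226). Chaf1a, the large subunit of the histone chaperone CAF-1 that places new histones on copied DNA, measured 12.5, 8.12 and 5.32 CPM in GFP- and 33.3, 33.5 and 17.6 CPM in GFP+. It rose by 1.73 ± 0.31 (adjusted p = 0.00691) with groups that did not overlap. Chaf1b, its partner subunit, was at 10.4, 12.0 and 11 CPM in GFP- and at 16.9, 28.3 and 20.4 CPM in GFP+. The groups were apart there too, and the rise was 0.95 ± 0.23 (adjusted p = 0.0294), a call that held in 1 of 6 fits with a library left out.

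**Figure D2:**
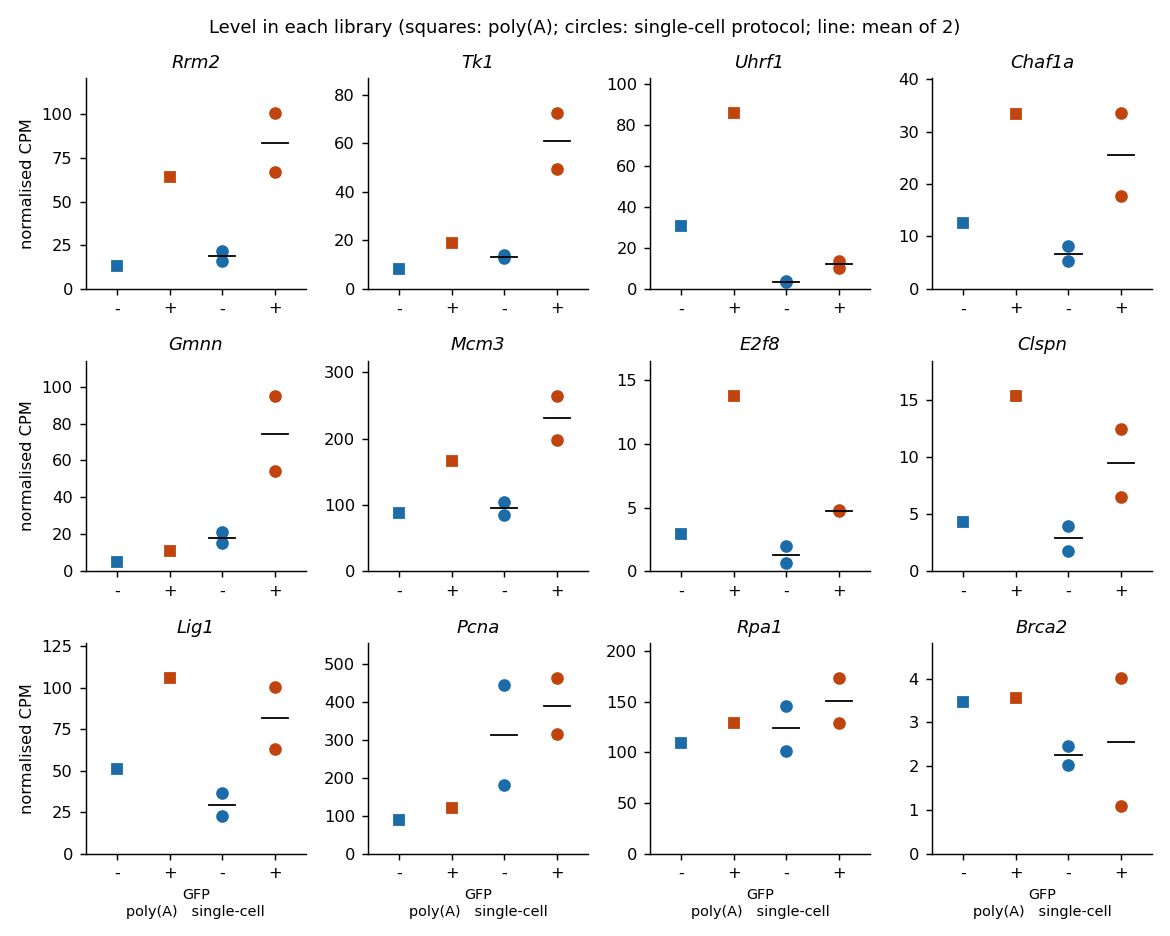
Normalised CPM of 12 genes in each library, with squares for poly(A) and circles for single-cell protocol libraries, blue for GFP- and orange for GFP+, and a line at the mean of 2 libraries. Axes start at 0 and differ between genes. Rrm2 runs from 12.8 to 21.7 in GFP- and from 64.2 to 101 in GFP+, whereas Pcna, Rpa1 and Brca2 overlap between the populations in the single-cell protocol.

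Licensing and helicase genes rose in part. Of 11 tested, 6 passed, and the median of all 11 was 1.11. Gmnn, geminin, the inhibitor of the loading factor Cdt1, had 4.82, 15 and 21.0 CPM in GFP- and 10.8, 95.0 and 54.2 CPM in GFP+. In the single-cell protocol GFP+ was far above GFP-, and the poly(A) pair was low in both populations and in the same order. Its log2 fold change was 1.76 ± 0.32 (adjusted p = 0.00674). The loading ATPase Cdc6 was at 4.02, 2.46 and 1.14 CPM in GFP- and at 10.2, 6.54 and 5.22 CPM in GFP+. Every GFP+ library was above every GFP- library, and it rose by 1.52 ± 0.32 (adjusted p = 0.0144).

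Genes of helicase activation followed. Mcm10, which helps the assembled helicase open DNA, was at 4.06, 4.20 and 1.65 CPM in GFP- and at 9.66, 11 and 9.35 CPM in GFP+. The GFP+ values lay close together and above all GFP- values, of which GFP- 5 was the lowest. Its rise was 1.56 ± 0.34 (adjusted p = 0.0172). Cdc45, a part of the active helicase, was at 6.39, 10.4 and 6.71 CPM in GFP- and at 15.1, 25.3 and 17.5 CPM in GFP+, again without overlap. It rose by 1.28 ± 0.26 (adjusted p = 0.0129). Gins1, a subunit of the GINS complex that joins Cdc45 and the ring, had a log2 fold change of 0.83 ± 0.24 and did not pass (adjusted p = 0.0571). Of the 6 licensing and helicase calls, those other than Gmnn held in 2 to 4 of 6 fits with a library left out.

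The ring subunits Mcm2 to Mcm7 were among the most abundant of these genes. Scaled to gene length in the poly(A) pair, the RPKM values (counts per length of the gene and size of the library) of GFP- 20 were 70.1 for Mcm2, 51.1 for Mcm3, 31.5 for Mcm4, 55.9 for Mcm5, 61.7 for Mcm6 and 44.0 for Mcm7. In GFP+ 19 they were 97.0, 99.9, 42.1, 98.5, 105 and 61.6 RPKM in the same order. Mcm3 and Mcm6 passed the test. Mcm3 stood at 87.3, 105 and 85.0 CPM in GFP- and at 166, 264 and 198 CPM in GFP+, a rise of 1.17 ± 0.25 (adjusted p = 0.0153). Mcm6 stood at 106, 236 and 188 CPM in GFP- and at 176, 586 and 462 CPM in GFP+, a rise of 1.11 ± 0.27 (adjusted p = 0.0271). Both were apart between populations within each protocol. Mcm7 at 0.75 ± 0.25, Mcm2 at 0.54 ± 0.23 and Mcm4 at 0.52 ± 0.24 did not pass (adjusted p = 0.0948, 0.174 and 0.214), though all 3 had every GFP+ library above the GFP- libraries of its protocol. With consecutive title numbers as a block in place of the protocol, the adjusted p of these 3 was 0.0113, 0.0353 and 0.0346, and they passed.

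Orc1, the regulated subunit of the origin recognition complex, had the largest p among the licensing genes. It was at 1.17, 1.67 and 0.760 CPM in GFP- and at 2.54, 1.47 and 2.25 CPM in GFP+. GFP+ 1 was below GFP- 2, so the single-cell protocol groups overlapped, and the log2 fold change of 0.79 ± 0.39 did not pass (adjusted p = 0.245).

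Mcm5, Cdt1, Gins2 and Orc6 on chromosome 8 and Chek1 on chromosome 9 have a count of 0 in all 4 single-cell protocol libraries. The same holds for 1652 of the 1653 genes on chromosomes 3, 8 and 9 with over 200 poly(A) counts and for 12 of 9094 such genes elsewhere, so those zeros say nothing of expression. From the poly(A) pair alone, with 1 library a group and no test, Mcm5 went from 113 CPM in GFP- 20 to 194 CPM in GFP+ 19, a log2 ratio of 0.78 with an exact 95% interval of 0.73 to 0.83 that covers counting error only. Cdt1, the loading factor that geminin inhibits, went from 55.4 to 83.4 CPM (log2 ratio 0.59, interval 0.52 to 0.66). Gins2 went from 5.22 to 10.5 CPM (log2 ratio 1.01, interval 0.79 to 1.24), and Orc6, the smallest origin recognition subunit, from 5.04 to 6.90 CPM (0.45, interval 0.21 to 0.70). The checkpoint kinase gene Chek1 went from 1.5 to 2.34 CPM (0.64, interval 0.20 to 1.09). All 5 were higher in the GFP+ library. Over all 47 genes, 46 were higher in GFP+ 19 than in GFP- 20, with Rpa3 as the exception. The share of all genes higher in that pair is not given, so the 46 only describes 1 library a group.

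Cyclin E and E2F genes had a median of 1.07, and 3 of 5 rose. E2f8, an atypical E2F that represses E2F targets late in S phase, was at 2.91, 1.96 and 0.633 CPM in GFP- and at 13.8, 4.74 and 4.79 CPM in GFP+. All GFP+ libraries were above all GFP- libraries, with the poly(A) library highest, and the rise was 1.97 ± 0.37 (adjusted p = 0.00787). The activator E2f1 was at 7.95, 1.74 and 2.66 CPM in GFP- and at 18.1, 6.38 and 6.67 CPM in GFP+. It was apart within each protocol, and it rose by 1.43 ± 0.27 (adjusted p = 0.00853). The E2f8 and E2f1 calls each held in 4 of 6 fits with a library left out.

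E2f2, another activator, was at 42, 23.2 and 29.0 CPM in GFP- and at 79.7, 49.4 and 38.9 CPM in GFP+. GFP+ was above GFP- within each protocol, the rise was 0.82 ± 0.22 (adjusted p = 0.0416), and the call held in 1 of 6 fits with a library left out. The E-type cyclins, which activate Cdk2 at S phase entry, did not pass. Ccne1 was at 5.95, 2.68 and 1.14 CPM in GFP- and at 10.9, 4.99 and 4.28 CPM in GFP+ (1.07 ± 0.33, adjusted p = 0.0672). Ccne2 was at 1.17, 3.19 and 1.77 CPM in GFP- and at 2.62, 3.84 and 5.51 CPM in GFP+ (0.98 ± 0.33, adjusted p = 0.0934). In both genes GFP+ was above GFP- within each protocol.

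Polymerase and fork genes differed least of the 6 roles by median: 0.40, with 2 of 16 past the threshold. Lig1, the ligase that joins Okazaki fragments, was at 50.8, 36.3 and 22.7 CPM in GFP- and at 106, 101 and 63.2 CPM in GFP+. The groups did not overlap, and it rose by 1.33 ± 0.29 (adjusted p = 0.0156). The Lig1 call held in 3 of 6 fits with a library left out. Pola1, the catalytic subunit of the polymerase that starts each strand with primase, was at 8.0, 3.33 and 2.79 CPM in GFP- and at 15, 6.46 and 6.09 CPM in GFP+. It was apart within each protocol and rose by 0.98 ± 0.24 (adjusted p = 0.0283). The Pola1 call held in 2 of 6 fits with a library left out. Pola2, the partner of Pola1, was at 0.33 ± 0.20 and the primase subunits Prim1 and Prim2 at 0.75 ± 0.23 and 0.32 ± 0.21, none past the threshold.

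Pole, the leading strand polymerase, was nearest to the threshold among the genes not called. It measured 13.0, 8.26 and 7.09 CPM in GFP- and 23.4, 16.6 and 11 CPM in GFP+, apart within each protocol (0.84 ± 0.24, adjusted p = 0.0551). Prim1 measured 5.39, 19.4 and 15.2 CPM in GFP- and 8.28, 34.8 and 26.2 CPM in GFP+ (adjusted p = 0.0686). Rfc5, a subunit of the clamp loader, measured 9.84, 19.2 and 14.8 CPM in GFP- and 14.0, 28.1 and 31.2 CPM in GFP+ (0.70 ± 0.22, adjusted p = 0.0741). In all 3, GFP+ was above GFP- within each protocol. Of the other loader subunits, Rfc3 was at 0.61 ± 0.20, Rfc2 at 0.43 ± 0.24 and Rfc4 at 0.16 ± 0.21.

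Pcna, the sliding clamp and a common marker of proliferating cells, had the highest RPKM of the 47 genes in the poly(A) pair, 118 in GFP- 20 and 164 in GFP+ 19. Its CPM was 87.6, 180 and 444 in GFP- 20, 2 and 5 and 120, 314 and 461 in GFP+ 19, 1 and 4. GFP- 5 was above GFP+ 1, and the log2 fold change of 0.36 had an interval from -0.46 to 1.18 (adjusted p = 0.573). Fen1, the flap nuclease that trims Okazaki fragments, ranged likewise within GFP-, with 40.3, 18 and 45.6 CPM against 58.6, 60.2 and 74.8 CPM in GFP+. Its groups were apart, and the difference of 0.91 ± 0.35 did not pass (adjusted p = 0.132).

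The lagging strand polymerase gene Pold1, at 0.18 ± 0.24, and the single-strand binding genes Rpa1 at 0.27 ± 0.25, Rpa2 at 0.32 ± 0.21 and Rpa3 at 0.17 ± 0.32 did not pass. Rpa3 had the largest p of the role: its CPM was 3.37, 1.67 and 2.66 in GFP- and 3.32, 2.13 and 3.05 in GFP+ (adjusted p = 0.788). The populations overlapped, and GFP- 20 was the highest library. For the RPA genes, whose 95% intervals reached up to 0.84, 0.80 and 0.90, a moderate rise could not be told from none.

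Of the 3 tested checkpoint and repair genes, 1 rose. Clspn, claspin, which carries the replication stress signal to Chek1, was at 4.30, 3.99 and 1.77 CPM in GFP- and at 15.3, 12.4 and 6.45 CPM in GFP+. All GFP+ libraries were above all GFP- libraries (1.72 ± 0.37, adjusted p = 0.0146), and the call held in 3 of 6 fits with a library left out. Brca1, at 4.65, 3.84 and 1.01 CPM in GFP- and at 8.81, 5.48 and 3.19 CPM in GFP+, did not pass (0.82 ± 0.43, adjusted p = 0.264), and GFP+ 4 was below GFP- 2. Brca2, which acts in homologous recombination, was at 3.48, 2.46 and 2.03 CPM in GFP- and at 3.56, 4.01 and 1.09 CPM in GFP+. GFP+ 4 was the lowest library of all, and the log2 fold change of 0.11 had an interval from -0.90 to 1.11 (adjusted p = 0.912). Brca2 also had the lowest RPKM of the 47 genes, 0.548 in GFP- 20 and 0.575 in GFP+ 19.

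The size of the difference was close in both protocols. In the poly(A) pair the median log2 ratio of the 42 genes was 0.86, and in the 4 single-cell protocol libraries alone the median fold change was 0.88. In that smaller test 7 genes passed (Rrm2, Tk1, Gmnn, Chaf1a, Uhrf1, Rrm1 and Mcm10), all 7 among the 19, where 5.34% of all genes were called higher. That test makes the same comparison as the fits without GFP- 20 or GFP+ 19 and is not a further result. The number of replication genes called was 14 with no low-count filter and 10 with DESeq2. For these alternatives the share of all genes called is not given, so the 5.34% is not their background. In those 4 libraries all 42 fold changes were above 0, where the median over all genes was -0.08, and 20 had an unadjusted p under 0.05. The shares of all genes above 0 and under that p are not given, so both counts are descriptions only. Every GFP+ library was above every GFP- library of its protocol for 34 of the 42 genes, among them all 19 that rose and 15 that did not pass. Over all genes this held for 21.3%. No gene had a population difference that depended on protocol by the interaction test of edgeR: 0 of 42, against 0% of all genes, and 0 of the 42 had an unadjusted p under 0.05. DESeq2 also called 0. The SE of the interaction was 0.64 to 1.00, so differences between protocols of the size seen, from -0.55 for Orc1 to 1.01 for Tk1, were not detectable with 6 libraries.

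**Figure D3:**
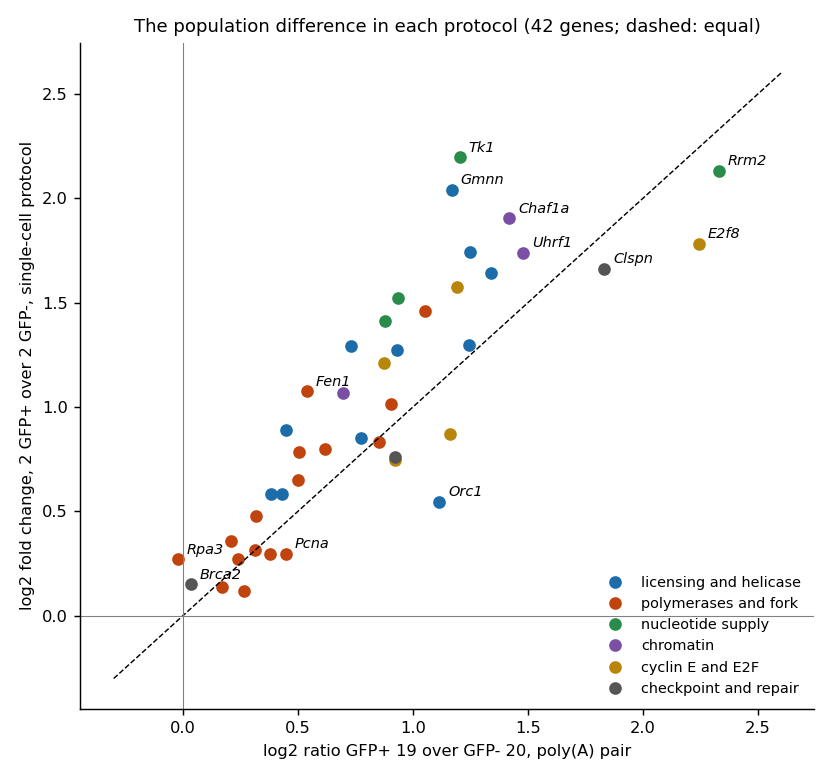
Log2 ratio of the poly(A) pair on the x axis against the log2 fold change of the 4 single-cell protocol libraries on the y axis, 1 point for each of 42 genes, coloured by role. The dashed line marks equal values. All points lie above 0 on the y axis and all but Rpa3 are right of 0 on the x axis, with Tk1 and Gmnn above the line and Rrm2, E2f8 and Orc1 below it.

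Libraries of the same population differed in these genes by amounts near the smaller effects. GFP- 5 was below GFP- 2 for 31 of the 42 genes with a median log2 ratio of -0.31, compared with -0.02 over all genes. Brca1 at -1.92, E2f8 at -1.63 and Mcm10 at -1.35 were the lowest, while Fen1 at 1.34 and Pcna at 1.30 went the other way. GFP+ 4 was below GFP+ 1 for 28 of 42, with a median of -0.28, compared with 0.03 over all genes, and Brca2 was the lowest at -1.88. Relative to the mean of the GFP- libraries of the same protocol, the median log2 ratio over the 42 genes was 0.86 in GFP+ 19, 1.10 in GFP+ 1 and 0.88 in GFP+ 4. The summed level of the 42 genes was 1228, 1578 and 1678 CPM in GFP- 20, 2 and 5 and 1966, 3128 and 2759 CPM in GFP+ 19, 1 and 4, without overlap.

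The protocol moved single genes as much as the population did. With the population in the model, 14 of the 42 genes were higher with the single-cell protocol and 10 lower (edgeR, adjusted p under the same threshold), where 30.5% of all genes were called higher and 34.6% lower. Uhrf1 was lower by 2.98 on the log2 scale, while Rfc4, Rpa2 and Gmnn were higher by 2.41, 2.37 and 2.33. The order of 2 genes within 1 library therefore depends on the protocol. The 22 tested genes shorter than 3000 bases had a median protocol difference of 1.05, and the 20 that are longer had one of -0.60. Spearman's rho between length and the protocol difference was -0.69 over the 42 genes and -0.62 over all genes, as a description, since genes share their libraries. In the single-cell protocol table the length of all 20 longer tested genes is given as exactly 3000 bases. The counting of reads in long genes is not described in the labels.

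**Figure D4:**
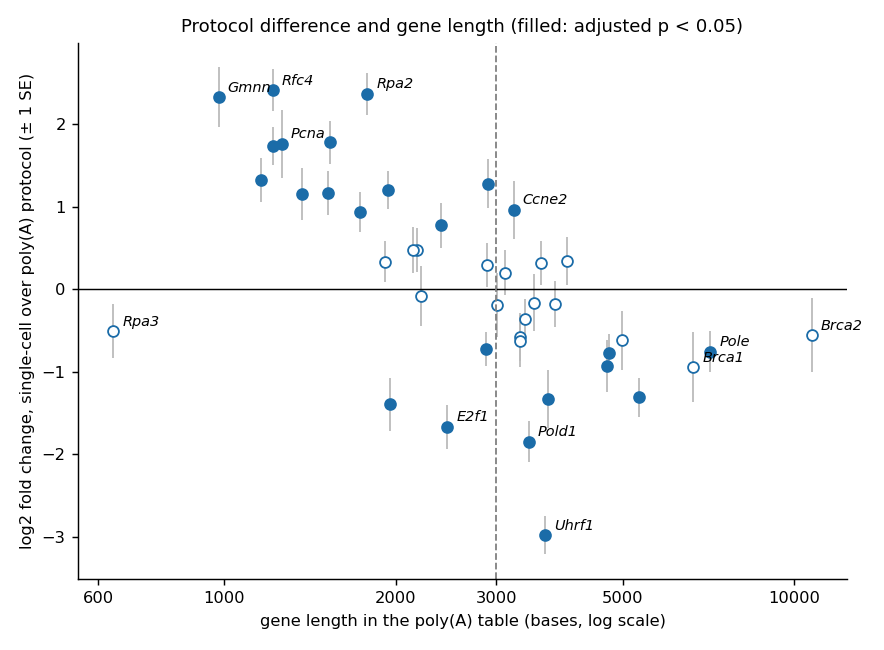
Log2 fold change of the single-cell over the poly(A) protocol against gene length in the poly(A) table on a log axis, 1 point for each of 42 genes with bars of ± 1 SE, filled where the adjusted p is under 0.05. The dashed line marks 3000 bases. Of the genes to its left 13 are higher with the single-cell protocol and 3 lower, and to its right 1 is higher and 7 are lower.

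Counting could share reads between some of these genes and their neighbours. In the GENCODE M21 annotation 17 of the 47 genes have an exon that overlaps another gene's exon, 16 of them on the opposite strand, and the use of strand in counting is not stated. Of the 19 genes that rose, 5 are among them: Cdc45, Chaf1a, E2f8, Lig1 and Tk1. The neighbour of Rfc2, Lat2, had 67, 29 and 23 counts in GFP- and 344, 158 and 176 in GFP+, and that of Rfc4, Eif4a2, had 3846, 4553 and 1853 in GFP- and 2095, 2607 and 1729 in GFP+. Neither Rfc2 nor Rfc4 passed the test.

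Other genes of the same machinery were set beside the 47, and the share of all genes called higher, 9.81%, is the background of each count. Among 14 tested helicase and origin genes, 1 rose and 0 fell, with a median of -0.30. It was Ticrr, treslin, which helps Cdc45 load, at 3.48, 1.30 and 0.633 CPM in GFP- and 10.4, 2.70 and 3.12 CPM in GFP+ (1.54 ± 0.32, adjusted p = 0.0137), and the count was 0 without GFP- 20, without GFP+ 19 or without GFP+ 1. The 1 gene of 14 is near that background. The constitutive origin subunits Orc2, Orc3, Orc4 and Orc5 had values of -0.30, -0.31, -0.54 and -0.66, none past the threshold, beside 0.79 for the regulated subunit Orc1. Among 17 tested polymerase and fork genes 2 rose and 0 fell, with a median of 0.20: Top2a, the topoisomerase of proliferating cells (2.09 ± 0.50, adjusted p = 0.0249), and Chtf18, of an alternative clamp loader (0.92 ± 0.26, adjusted p = 0.0489). Those 2 of 17 are also near the background. That count was 1 when GFP- 20, GFP- 2, GFP+ 19 or GFP+ 4 was left out and 0 without GFP+ 1.

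Among 17 other tested genes of nucleotide supply, 1 rose and 0 fell, with a median of -0.22. It was Dut, which removes deoxyuridine triphosphate, at 15.5, 57.7 and 96.2 CPM in GFP- and 25.1, 242 and 214 CPM in GFP+ (1.28 ± 0.30, adjusted p = 0.0226), and the count was 0 without GFP+ 1 or GFP+ 4 and 3 without GFP- 5. The count of 1 in 17 is no higher than the 9.81% of all genes. Genes of purine and one-carbon synthesis had values below 0 that did not pass, such as Mthfd1 at -0.61 ± 0.22 and Gart at -0.58 ± 0.21. Of 17 tested chromatin and repair genes 3 rose and 0 fell, with a median of 0.41. Among them was Rad54l, a DNA translocase of homologous recombination, at 4.0, 2.68 and 1.39 CPM in GFP- and 9.56, 5.40 and 5.66 CPM in GFP+ (1.34 ± 0.30, adjusted p = 0.0184). The count was 1 without GFP- 20, GFP+ 19 or GFP+ 1 and 5 without GFP- 2.

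Upstream of S phase, 5 of 14 tested G1 to S control genes rose and 0 fell, with a median of 0.36. E2f7, the partner of E2f8, rose by 2.18 ± 0.35 (adjusted p = 0.00387), Mybl2 by 1.68 ± 0.30 and Cdk6 by 1.58 ± 0.31. E2f7 was low, with 61, 4 and 3 counts in GFP- and 301, 19 and 19 in GFP+. The number of genes called was 0 without GFP- 20 or GFP+ 19 and 2 without GFP+ 1. Ccnd2 at -0.07, Ccnd3 at 0.34, Cdk4 at -0.18, Cdk2 at 0.06 and Rb1 at 0.01 did not pass. Of 10 tested CDK inhibitors and antiproliferative genes 3 rose and 1 fell, with a median of -0.08. Cdkn1a, the p53 target p21, was at 1.15, 1.09 and 2.79 CPM in GFP- and 9.13, 14.6 and 14.5 CPM in GFP+ (2.98 ± 0.34, adjusted p = 0.000733). Cdkn2c rose by 2.29 ± 0.28 and Cdkn2b by 2.94 ± 0.57, while Pdcd4, a translation inhibitor, fell by 1.04 (SE 0.27, adjusted p = 0.0379). Cdkn2b had 9, 1 and 4 counts in GFP- and 103, 14 and 20 in GFP+, so its fold change rests on very low GFP- values. The number of genes called in either direction was 2 without GFP- 20 or GFP+ 19.

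Mitotic genes were set beside them as a reference for later cell cycle stages. Of 9 tested, 7 rose and 0 fell, with a median of 2.47. Ube2c, of the anaphase promoting machinery, rose by 3.15 ± 0.25 (adjusted p = 0.00013), Plk1 by 2.50 ± 0.23 and Cdk1 by 2.21 ± 0.22. Mki67, at 20.8, 20.1 and 2.15 CPM in GFP- and 86.3, 130 and 18.3 CPM in GFP+, did not pass (2.48 ± 0.82, adjusted p = 0.0871), and its libraries ranged widely within each population. The difference between these lists was not tested.

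**Figure D5:**
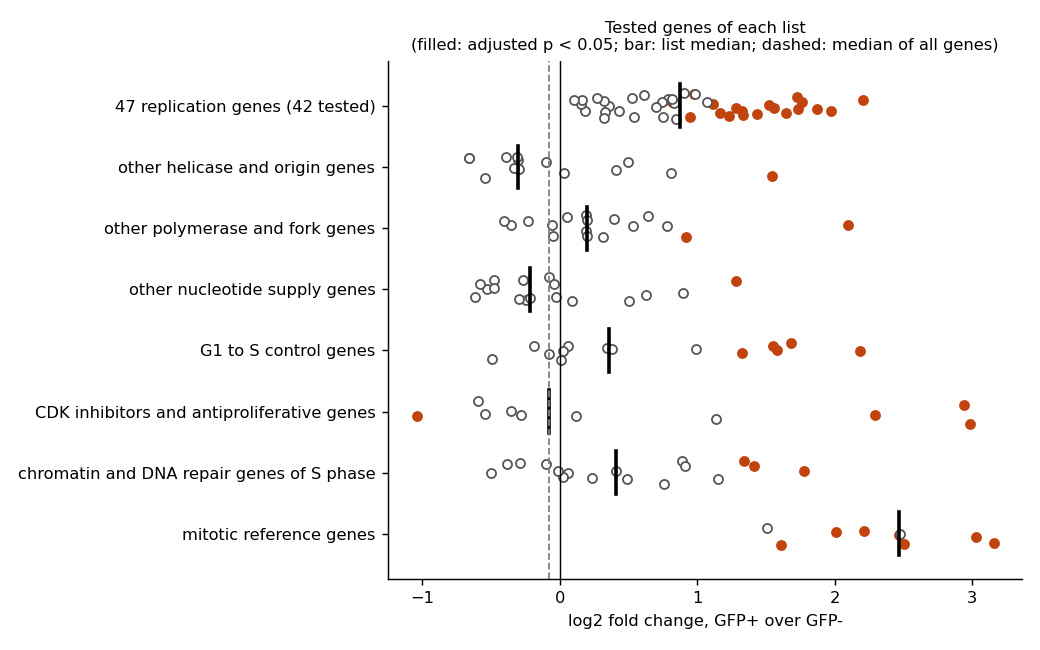
Log2 fold change in GFP+ over GFP- Treg of every tested gene, 1 row for each list, filled where the adjusted p is under 0.05. Bars mark the median of a list, 0.88 for the replication genes and 2.47 for the mitotic genes, and the dashed line the median of all genes at -0.08.

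Markers of other cells were measured in the same libraries. Those of plasma cells summed to 132, 196 and 219 CPM in GFP- 20, 2 and 5 and to 336, 325 and 502 CPM in GFP+ 19, 1 and 4, a list that includes Prdm1 itself, while Tnfrsf17 was at or near 0 in all libraries. Xbp1 made up 68.9, 155 and 165 CPM of these sums in GFP- and 74.5, 178 and 260 CPM in GFP+. It did not pass (0.34 ± 0.25, adjusted p = 0.433). Irf4 rose by 1.06 ± 0.23 (adjusted p = 0.0150). Sdc1 rose by 1.95 ± 0.52 (adjusted p = 0.0399), and Igj, at 3.03 ± 1.00, did not pass (adjusted p = 0.0865). Igj was at 1.54, 1.52 and 15.8 CPM in GFP- and at 11.3, 8.75 and 136 CPM in GFP+, with GFP+ 4 far above the others. Of 4 tested B cell markers 0 passed. Erythroid markers summed to 33.4, 92.9 and 339 CPM in GFP- and to 61.5, 521 and 955 CPM in GFP+. The haemoglobin gene Hba-a1 rose by 1.83 ± 0.42 (adjusted p = 0.0197), while Hbb-b1 at 1.61 ± 0.59 and Alas2 at 1.30 ± 0.53 did not pass. Tfrc, of the same list, went the other way at -0.66 ± 0.39 and did not pass (adjusted p = 0.323). Klf1 and Epor have counts in the poly(A) pair only: Klf1 was at 0.0869 CPM in GFP- 20 and 0.224 CPM in GFP+ 19, and Epor at 0.369 and 3.30 CPM. Among CD8 T and natural killer cell markers Nkg7 rose, and Cd8a and Ncr1 fell. The part of these cells in the levels of replication genes was not tested.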

How the data were processed

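RNA of 6 sorted Treg libraries was measured, 3 for each population. Column-purified RNA went through either poly(A) selection or a single-cell approach, per the labels' protocols. The authors deposited raw counts per Entrez gene in a table for each protocol and log2 RPKM values per library, whose sorted values were nearly equal between libraries (median range 0.00335). Per the submitters' processing notes, Subread, featureCounts and edgeR were used with mm9; their versions are not stated there. The log2 values served only as an alternative.

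The tables were joined on the Entrez number. The edgeR filter filterByExpr, grouped by population, left the genes tested (10523 of 26286, of which 540 in all have no symbol), and libraries were scaled by TMM (factors 2.02 and 2.06 for poly(A), 0.519 to 0.846 for the others) in edgeR 4.0.16, with R 4.3.3. The quasi-likelihood test had the protocol as covariate and 3 residual degrees of freedom, or 2 with the interaction. The Benjamini-Hochberg adjustment of p-values ran over all genes tested, and the threshold was 0.05. SEs come from the F statistic, and intervals are 95%. CPM are counts divided by the TMM-scaled total of the tested genes in a library, and are given for untested genes too. RPKM were computed from the poly(A) counts and lengths. Intervals of the poly(A) pair are exact (Clopper-Pearson). No library matched another within sampling noise (chi-square per degree of freedom of 88.9 or more). The procedure was tested on simulated data. Alternatives used limma 3.58.1 and DESeq2 1.42.0.

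Genes with per-library values are, in each role, the 5 with the smallest p, the 1 with the largest, those without single-cell protocol counts, and Mcm6, Pcna and Fen1 beside them. From each further list up to 3 genes with the smallest p are named, and others only as values; some genes of these lists are not reported here. Members and lists were chosen with earlier results of these data known. Reference names and promoters are of GRCm38, and no mm9 coordinates are given.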

Additional observations from a re-analysis of the deposited data

How the results depend on the processing

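The median log2 fold change of the 42 genes, 0.88, kept its direction under all alternatives and ran from 0.75 (limma on the deposited log2 RPKM) to 0.96 (without GFP+ 4). The number of replication genes called higher, 19, became 0 without the protocol covariate and 31 with consecutive title numbers as a block in place of the protocol. It ran from 6 to 21 when 1 library was left out, and the remaining alternatives gave 13 to 26. The 13 is for a mean of at least 10 CPM, where only 29 of the 42 genes were tested. Over all genes the number called higher was 1032 in the fit as reported, 115 without the protocol covariate and 1658 with the block. In the single-cell protocol libraries alone the number of replication genes called went from 7 to 14 with no low-count filter, where the share of all genes called is not given.

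Calls in the further lists, in either direction, moved as follows. Without the protocol covariate the mitotic list went from 7 to 1, and the 6 other lists to 0. With a mean of at least 10 CPM, helicase and origin genes went from 1 to 0, polymerase and fork genes from 2 to 1, G1 to S genes from 5 to 1, CDK inhibitors from 4 to 1, and chromatin and repair genes from 3 to 1. That filter left 6764 genes to test. A gene below it was not tested, so a lower count there need not mean that a call was lost in a test. With no filter, nucleotide supply went from 1 to 2 and chromatin and repair from 3 to 5. With the block of consecutive numbers, helicase and origin genes went to 3, nucleotide supply to 6 and chromatin and repair to 6. The DESeq2 test gave 2 helicase and origin genes and 3 of nucleotide supply. Polymerase and fork genes numbered 1 with DESeq2 size factors and 1 with limma on log2 RPKM. Leaving out 1 library gave 0 to 1 helicase and origin genes, 0 to 2 polymerase and fork genes, 0 to 3 of nucleotide supply, 0 to 6 G1 to S genes, 2 to 5 CDK inhibitors, 1 to 5 chromatin and repair genes and 6 to 8 mitotic genes.

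Direction turned for Rpa3, to -0.060 without GFP- 2 and -0.0071 without GFP+ 4 (range -0.060 to 0.29 with 1 library left out), and for Brca2, to -0.051 with limma-voom, -0.27 on log2 RPKM and -0.46 without GFP+ 1 (range -0.46 to 0.45). Neither was called in any of these. Of all calls over 10523 genes, 72.7% were higher in the fit as reported, 62.7% with the DESeq2 test, 62.3% on log2 RPKM and 56.8% with the block of consecutive numbers. The cause of these shifts was not tested.

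With 3 libraries a group and 1 per protocol in the poly(A) pair, SEs of the 42 genes were 0.20 to 0.44, and a difference whose 95% interval holds 0 could not be told from none at this depth and number of libraries.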

Other observations

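Several genes of the further lists lie on chromosomes 3, 8 or 9 and so have counts only in the poly(A) pair, with 1 library a group and no test. Ccna2, the cyclin of S phase and G2, went from 10.5 CPM in GFP- 20 to 43.3 CPM in GFP+ 19, a log2 ratio of 2.05 with an exact 95% interval for counting error of 1.90 to 2.19. Ccnb2, a mitotic cyclin, went from 6.28 to 28.4 CPM (2.18, interval 2.00 to 2.37). Asf1b, a histone chaperone that passes histones to CAF-1, went from 11.4 to 36.7 CPM (1.68, interval 1.54 to 1.82), and Dnmt1, the maintenance methyltransferase that works with Uhrf1, from 156 to 237 CPM (0.60, interval 0.56 to 0.64). Rbl2, of the retinoblastoma family, went from 89.6 to 160 CPM (0.84, interval 0.78 to 0.89). Lower in the GFP+ library were Atr, the kinase upstream of Chek1, from 15.1 to 11.5 CPM (-0.38, interval -0.55 to -0.22), its partner Atrip from 19 to 15.2 CPM (-0.32, interval -0.46 to -0.18), and Impdh2, of purine synthesis, from 60.4 to 42.1 CPM (-0.52, interval -0.60 to -0.44). These genes were singled out after their values were seen.

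Cdkn2a, the inhibitor locus of Ink4a and Arf, was left out by the low-count filter. It was at 0.130 CPM in GFP- 20 and 4.78 CPM in GFP+ 19, at 0 in GFP- 2 and 5, and at 0.245 and 0.218 CPM in GFP+ 1 and 4.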
